A study of Mus musculus with 12 samples.

Results

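RC replicate 3-only distal peaks are 9426 stretches of open chromatin that were called in 1 retention control (RC) library and in neither of the 2 extinction (EXT) libraries. They were taken from the 97961 peaks of RC replicate 3. Kept were peaks on chromosomes 1 to 19 that were over 170 bp long, shared no base with an EXT peak and lay over 1 kb from both ends of every RefSeq protein-coding or lncRNA gene. The first steps left 96459 peaks on these chromosomes and 56258 of sufficient length, of which 42894 were distal. The 9426 members made up 22.0% of those 42894 distal wide peaks and covered 2.40 Mb of their 14.8 Mb. The 5 lists analysed hold 309770 peaks in all. The members were chosen by the presence of calls in the RC replicate 3 and EXT lists and by peak length, so strength and size in RC replicate 3 are given as a description. The test that the choice did not use is whether the members recur in the other 2 RC lists.

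Open chromatin was mapped by ATAC-seq, in which a transposase cuts accessible DNA and leaves sequencing adapters there. All groups were adult male C57BL/6 mice, 10 to 12 weeks old, fear-conditioned with 3 pairings of a tone (80 dB, 16 kHz) and a foot shock (0.7 mA, 1 s). A day later the EXT mice heard 60 tones in context B, and the RC mice spent an equal time in that context without tones. The infralimbic prefrontal cortex (ILPFC), a region needed for fear extinction, was taken straight afterwards, and 50000 cells positive for Arc (the product of an activity-induced gene) and NeuN (a neuronal protein) were sorted per library from 5 pooled mice. Each replicate is therefore a pool, and neither group is naive to the shock. Lists of 3 RC and 2 EXT libraries were used; EXT replicate 3, which the labels describe as dropped for low yield, and 6 lncRNA capture libraries were not analysed here.

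Peaks far from gene ends mark candidate enhancers, silencers and insulators, which act on genes from a distance. Such elements differ more between cell types than promoters do, and in neurons many lie inside long genes for synaptic proteins. A peak is a call against the local background, so an element of low signal can be called in one library and missed in another although both hold it.

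The libraries held 57.7 M to 73.8 M tags, RC replicate 3 the most and EXT replicate 2 the fewest. The lists of RC replicates 1 and 2 stop within chromosome 1, at positions 166286196 and 37624379 (mm10), so the members can be checked there only. On the part of chromosome 1 that all 5 lists reach, distal wide peaks numbered 718, 736 and 390 in RC replicates 1, 2 and 3 and 358 and 656 in EXT replicates 1 and 2. RC replicate 3 and EXT replicate 1 were therefore the shortest lists, whereas RC replicates 1 and 2 were closer in length to EXT replicate 2. Mean numbers were 615 ± 195 (SD, n = 3) for RC and 507 ± 211 (SD, n = 2) for EXT. The mean of the log2 numbers for EXT less that for RC was -0.29 (two-sided exact permutation p = 0.5, where 10 splits cannot go below 0.1). Without EXT replicate 1 the difference turned to 0.15. Of 5 pan-neuronal marker genes, 4 had a peak at a gene end in RC replicate 3, 4 in the first EXT list and 5 in the second, and of 5 microglial markers 1 did in each. Rbfox3, which encodes NeuN, had no end peak in RC replicate 3 or EXT replicate 1. In the same order, end peaks were at 5, 5 and 6 of 6 excitatory, 3, 3 and 2 of 7 inhibitory, 2, 2 and 3 of 6 oligodendrocyte, 1, 1 and 1 of 5 astrocyte and 2, 1 and 2 of 4 endothelial markers. The non-neuronal markers with one in all 3 lists were Sox10, Olig1, Spi1, Gfap and Cldn5. The part of other cell types in the member set was not tested.

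The sequences below belong to the few members that RefSeq tables of build GRCm38.p6 (the same build as mm10) place at a start site or a microRNA. They are shown because a rule built on the outer ends of genes leaves internal starts in the distal set. Of the 9426 members, 13 overlapped a promoter window, 250 bases before to 50 after a start. The share for the other distal wide peaks was not computed, so this count has no comparison. In each line, capitals mark the bases that lie inside the RC replicate 3 peak and the strand is that of the gene, 5′ to 3′. Pou2f1 encodes the octamer-binding factor Oct-1, Mctp1 a calcium-binding membrane protein, Evl an actin regulator of the Ena/VASP family and Bcl11a a zinc-finger repressor of neuronal and blood development.
Pou2f1, chr1:165934899-165935198, minus strand: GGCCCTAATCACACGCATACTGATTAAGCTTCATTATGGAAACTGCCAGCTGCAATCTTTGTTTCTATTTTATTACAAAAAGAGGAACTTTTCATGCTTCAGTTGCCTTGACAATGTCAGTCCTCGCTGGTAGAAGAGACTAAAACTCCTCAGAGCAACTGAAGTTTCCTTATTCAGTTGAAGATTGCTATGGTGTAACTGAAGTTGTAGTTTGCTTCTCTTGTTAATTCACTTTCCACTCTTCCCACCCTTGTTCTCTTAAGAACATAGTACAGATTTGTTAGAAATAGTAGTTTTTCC
Mctp1, chr13:76579347-76579646, plus strand: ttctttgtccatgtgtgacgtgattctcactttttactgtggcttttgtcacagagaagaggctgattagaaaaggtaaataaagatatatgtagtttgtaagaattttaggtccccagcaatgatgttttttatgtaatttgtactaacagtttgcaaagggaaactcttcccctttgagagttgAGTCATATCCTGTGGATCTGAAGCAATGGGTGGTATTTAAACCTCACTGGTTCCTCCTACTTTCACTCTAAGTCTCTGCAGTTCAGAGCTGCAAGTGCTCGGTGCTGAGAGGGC
Evl, chr12:108605516-108605815, plus strand: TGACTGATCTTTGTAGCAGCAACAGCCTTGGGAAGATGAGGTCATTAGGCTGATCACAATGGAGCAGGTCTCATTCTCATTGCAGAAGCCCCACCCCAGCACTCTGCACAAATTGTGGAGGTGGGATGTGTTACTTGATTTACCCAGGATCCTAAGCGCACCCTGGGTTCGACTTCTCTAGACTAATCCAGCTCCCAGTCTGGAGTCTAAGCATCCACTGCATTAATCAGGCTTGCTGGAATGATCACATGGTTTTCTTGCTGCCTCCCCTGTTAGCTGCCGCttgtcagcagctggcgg
Bcl11a, chr11:24080445-24080744, plus strand: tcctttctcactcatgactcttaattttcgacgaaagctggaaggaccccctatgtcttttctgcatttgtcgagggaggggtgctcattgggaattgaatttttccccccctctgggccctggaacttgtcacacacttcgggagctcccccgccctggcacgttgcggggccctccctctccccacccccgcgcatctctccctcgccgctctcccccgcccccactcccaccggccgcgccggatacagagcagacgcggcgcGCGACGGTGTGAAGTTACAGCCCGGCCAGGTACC

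The Pou2f1 member, 63.7 kb from the nearest outer gene end, took in all 300 bases of the window, with a fold enrichment of 3.5 over the local background. It could be checked in RC replicate 1 and had no peak there. At Mctp1 the peak held the last 114 bases of the window, with a fold of 4.62 and the nearest EXT peaks 10.8 kb away. At Evl the fold was 3.23 and 283 bases were inside. The Bcl11a member covered 34 bases of a window with 63.0% GC and lay 0.039 kb from an EXT replicate 2 peak, so an EXT peak borders it. The 13 windows had a median GC content of 51.3% (38.0% to 63.0%) beside 52.7% over all 32851 windows in the table.

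Motifs were searched as plain letters on both strands. The AP-1 motif TGANTCA, bound by Fos and Jun proteins that neuronal activity induces, was found in 2 of the 13 windows and in 7.81% of all windows. One of these was Mctp1, where TGAGTCA spans positions 185 to 191 counted from the window's first base and 5 of its letters lie inside the peak. The cAMP response element TGACGTCA was in 0 of 13 and 1.79% of all. CCAAT was in 4 (37.4% of all), GGGCGG in 5 (35.7%) and TATAAA in 1 (13.6%).

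One member overlapped a microRNA gene, Mir3085, on the minus strand of chromosome 19. The peak, chr19:42279904-42280165, had a fold of 2.68 and lay 7.24 and 5.19 kb from the nearest EXT replicate 1 and 2 peaks. Its 2 mature products are given with the seed, bases 2 to 8, in capitals, since the seed is what sets a microRNA's targets. The seeds differ.
mmu-miR-3085-3p: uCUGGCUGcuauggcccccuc
mmu-miR-3085-5p: aGGUGCCAuuccgagggccaagagu

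To ask whether the members recur in the group or only in the library, they were looked up in RC replicate 1. Of the 482 members on chromosome 1 within its reach, 102 had a peak there, 21.2% (95% exact Clopper-Pearson interval 17.6 to 25.1). All distal wide peaks of RC replicate 3 on that stretch were found in 72.4% of cases, and those that overlap an EXT peak in 87.1%. The members were thus found far less often than the other distal wide peaks of their list on that stretch. They were chosen for absence from 2 lists and the last set for presence in at least 1. A lower share is therefore partly built into the choice, and this comparison cannot tell group from library effects. Set beside this value is the reverse set, peaks in 1 EXT list and in neither of the other 2 complete lists. These sets are not mirror images. Members and EXT replicate 1-only peaks had to be absent from EXT replicate 2, the longest complete list (65724 distal wide peaks). EXT replicate 2-only peaks had to be absent only from the 2 shorter ones (42894 and 35819). The part of this in the differences below was not tested. Peaks in EXT replicate 1 only, 22.1% of its distal wide peaks, were found in RC replicate 1 in 93 of 455 cases, 20.4% (16.8 to 24.4), beside 70.9% of all distal wide peaks of that list. Peaks in EXT replicate 2 only, 41.6% of its distal wide peaks, were found in 813 of 1518, 53.6% (51.0 to 56.1), beside 74.3%. Members exceeded the first set by 0.722 percentage points (Newcombe interval -4.49 to 5.91) and fell short of the second by -32.4 points (-36.6 to -27.8). Recurrence in a library of the same group was thus not told apart from that of EXT replicate 1-only peaks and was below that of EXT replicate 2-only peaks. The intervals treat peaks as independent and cover counting error only.

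On the shorter part that all lists reach there were 97 members. RC replicate 1 held 15 of them, 15.5% (8.92 to 24.2), and RC replicate 2 held 11, 11.3% (5.80 to 19.4), against 67.9% and 68.2% of all distal wide peaks of RC replicate 3. Both held 7, exactly 1 held 12 and neither held 78, or 80.4% (71.1 to 87.8). Of 94 EXT replicate 1-only peaks, 19 (20.2%) and 21 (22.3%) were in RC replicates 1 and 2, and 10 in both, against 69.6% and 70.1% of all distal wide peaks of that list. Members fell below these by -4.75 points (-15.7 to 6.18) and -11.0 points (-21.6 to -0.334). Of 303 EXT replicate 2-only peaks, 53.1% and 57.8% were in RC replicates 1 and 2, and 129 in both, against 72.7% and 75.5% of all. Neither RC replicate 1 nor 2 held 64 of the 94 EXT replicate 1-only peaks, 68.1% (57.7 to 77.3). Of all distal wide peaks of RC replicate 3 on this part, neither held 27.2%. Peaks that EXT replicate 2 alone of the complete lists holds were thus mostly shared with RC replicate 1 or 2. Members and EXT replicate 1-only peaks were mostly shared with neither.

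**Figure D1:**
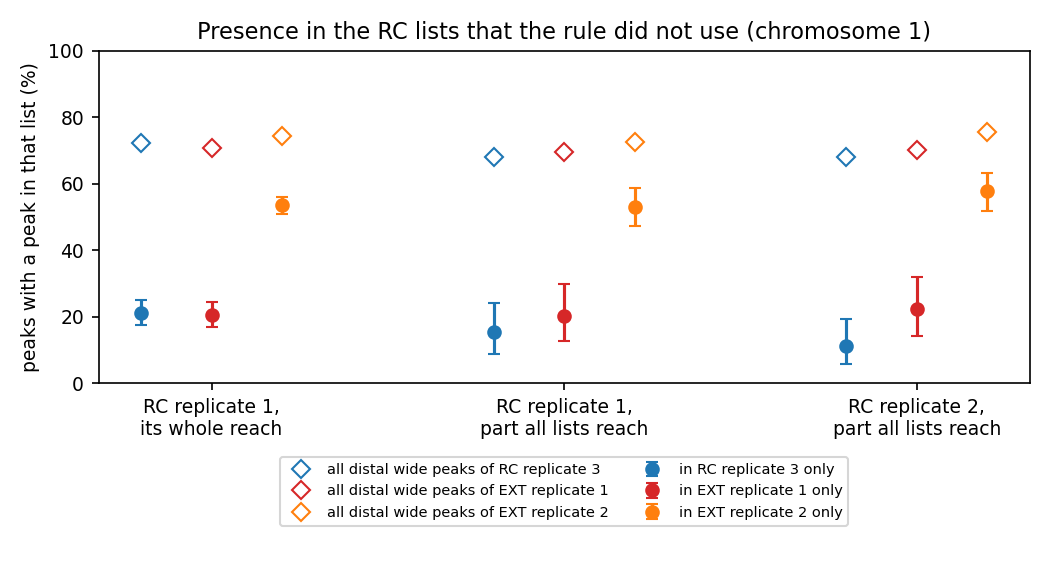
Share of peaks (%) with a peak in RC replicate 1 or 2 on chromosome 1, for all distal wide peaks of a list (diamonds) and for those in that list only (points; bars are 95% exact binomial intervals). The members sit at 21.2%, 15.5% and 11.3%, below EXT replicate 2-only peaks in each place. EXT replicate 1-only peaks sit at 20.4%, 20.2% and 22.3%.

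The size of this comparison depended on the lists entered. With EXT replicate 2 left out, 1000 distal wide peaks of RC replicate 3 on chromosome 1 overlapped no EXT replicate 1 peak, and 54.3% of them were in RC replicate 1. Of the 727 peaks in EXT replicate 1 and not in RC replicate 3, 43.1% were, a difference of 11.2 points (6.48 to 15.9). Against EXT replicate 2 alone the shares were 24.8% of 618 and 58.1% of 1821, a difference of -33.3 points (-37.3 to -29.1). With the 3 complete lists limited to equal length, 41.3% of the members were in RC replicate 1. That was 8.58 points (2.07 to 15.2) above EXT replicate 1-only peaks. Against EXT replicate 2-only peaks the difference was -35.7 points (-41.9 to -29.1). No share over all distal wide peaks is given for that setting. With no minimum length the members lay 4.65 points (1.06 to 8.22) above EXT replicate 1-only peaks. The difference from EXT replicate 2-only peaks was then -26.3 points (-29.5 to -22.9).

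Applied to RC replicate 1 instead of RC replicate 3, the rule gave 215 distal wide peaks on the shared part that overlap no EXT peak, of which 69 were in RC replicate 2, 32.1% (25.9 to 38.8). Peaks of EXT replicate 1 that were in neither RC replicate 1 nor EXT replicate 2 were in RC replicate 2 in 15 of 88 cases, 15.05 points fewer (interval of the difference 4.14 to 24.2). For EXT replicate 2 the corresponding count was 52 of 154, 33.8%, and the difference -1.67 points (-11.4 to 7.88). The peaks of RC replicate 1 in no EXT list thus recurred in RC replicate 2 more often than those of EXT replicate 1. Their share was not told apart from that of EXT replicate 2. The share over all distal wide peaks of RC replicate 1 is not given, so 32.1% has no base beside it.

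Across the whole of chromosome 1 within reach of RC replicate 1, the 2159 distal wide peaks of RC replicate 3 could be sorted by the lists that held them. All 4 lists held 969 of them (44.9%), and RC replicate 3 alone held 380 (17.6%). Present in RC replicates 1 and 3 and in neither EXT list were 102 peaks (4.72%). For comparison, 85 (3.94%) were shared with EXT replicate 1 alone and 77 (3.57%) with EXT replicate 2 alone. A further 441 (20.4%) were in RC replicates 1 and 3 and EXT replicate 2 but not EXT replicate 1. On this stretch RC replicate 1 held 3867 distal wide peaks, EXT replicate 1 held 1888 and EXT replicate 2 held 3480. The counts were not adjusted for these lengths. On the part that all 5 lists reach, 7 of 390 peaks were in all 3 RC lists and no EXT list, and 66 were in the 3 RC lists and EXT replicate 2.

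The 7 members found in all 3 RC lists lay in 5 genes. The one with the highest fold in the other libraries lay in Atp6v1h, which encodes a subunit of the proton pump that acidifies vesicles, at chr1:5109829-5110314. Its fold enrichment was 3.10, 5.71 and 5.42 in RC replicates 3, 1 and 2, each relative to the library's own background. EXT peaks lay 0.169 kb (replicate 1) and 0.010 kb (replicate 2) from it, so the gap that makes it a member is very small. The RC replicate 1 and 2 peaks there start at positions 5110295 and 5110057 and end at 5111237 and 5111176. Most of each lies beyond the member's own end, so their folds are not those of the member's bases alone.

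Rims1, a scaffold of the presynaptic release site, held 2 of the 7. At chr1:22391051-22391267 the folds were 2.43, 3.06 and 3.22, with the nearest EXT peaks 17.5 and 13.1 kb away. At chr1:22640682-22640961 they were 2.53, 2.75 and 3.61, with an EXT replicate 2 peak at 0.626 kb. Dst, which encodes the cytoskeletal linker dystonin, also held 2. One, chr1:34186079-34186268, had folds of 2.91, 3.21 and 3.85 and EXT peaks 2.41 and 2.87 kb away, and the other, chr1:34077621-34077855, 2.89, 4.16 and 3.33 with EXT peaks at 0.229 and 0.296 kb. The remaining members of this group lay in Smap1, a regulator of the small GTPase Arf6, with 2.59, 2.70 and 3.10, and in Ncoa2, a nuclear receptor coactivator with histone acetyltransferase partners, with 2.22, 3.25 and 3.10. In all 7 the fold was lower in RC replicate 3 than in either other RC list, on each list's own scale.

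Members beyond the reach of RC replicate 2 could be matched to RC replicate 1 only. The highest fold among those found was in Adam23, which encodes a synaptic adhesion protein of the LGI1 receptor complex, at chr1:63567158-63567386, with 4.46 in RC replicate 3 and 2.80 in RC replicate 1. An EXT replicate 2 peak lay 0.403 kb away. Syt2, a fast calcium sensor of vesicle release, followed at chr1:134719640-134719954 with 4.03 and 2.78 and no EXT peak within 5.4 kb. Peaks in Xpr1, the phosphate exporter (3.74 and 4.28), Rasal2, a Ras GTPase-activating protein (3.73 and 3.83), Ppp1r12b, a myosin phosphatase subunit (3.75 and 4.00), and Pik3c2b, a lipid kinase (3.59 and 2.73), lay 3.68 kb or more from any EXT peak. A member 24.2 kb from an end of Slc4a3, an anion exchanger, had 3.95 and 3.98. The other 3 of the 10 lay in the lncRNA genes Gm36139 (3.90 and 3.82) and Gm29538 (3.76 and 4.13) and near Myoparr (3.54 and 2.73).

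Found and missed members had similar values in RC replicate 3. The 102 found had a median fold of 2.84 and a median length of 240.5 bp, and the others 2.89 and 234.5 bp. In RC replicate 1 the matching peaks had a median fold of 3.07 (1.86 to 12.3), at the 27.1st percentile of that list, whose median is 3.92. None of the 102 had identical bounds in both lists. Recurrence was higher near an EXT peak, with intervals that overlap. Of 84 members within 500 bp of an EXT peak, 28 were in RC replicate 1, 33.3% (23.4 to 44.5), against 47 of 247 at 500 bp to 5 kb, 19.03%, and 27 of 151 at 5 kb or more, 17.9% (12.1 to 24.9).

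Over the genome the median gap from a member to the nearest EXT peak was 2.28 kb. There were 607 members (6.44%) within 150 bp of one and 1907 (20.2%) within 500 bp, which are near misses of the overlap rule. At the other end, 936 (9.93%) lay over 10 kb away, up to 141.9 kb. Members were spread out, with a median of 35.9 kb to the next member and 817 (8.67%) within 5 kb of one.

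By the values that chose them, members were weak peaks. Their fold had a median of 2.80 (1.68 to 6.98) beside 3.47 for the other distal wide peaks of RC replicate 3, which reached 58.5. The tag pileup at the summit had a median of 24 (15 to 103) beside 34, and the length 234 bp (171 to 971) beside 323 bp. The median −log10 q, the caller's adjusted significance, was 3.66, at the 13.7th percentile of the list, beside 7.56. A −log10 q of 10 or more was reached by 163 members (1.73%) and by 35.7% of the others. On chromosome 1, 6 members of that strength lay within reach of RC replicate 1, and 2 had a peak there. EXT replicate 1-only peaks had a median fold of 2.93 and EXT replicate 2-only peaks 3.38 in their own lists.

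**Figure D2:**
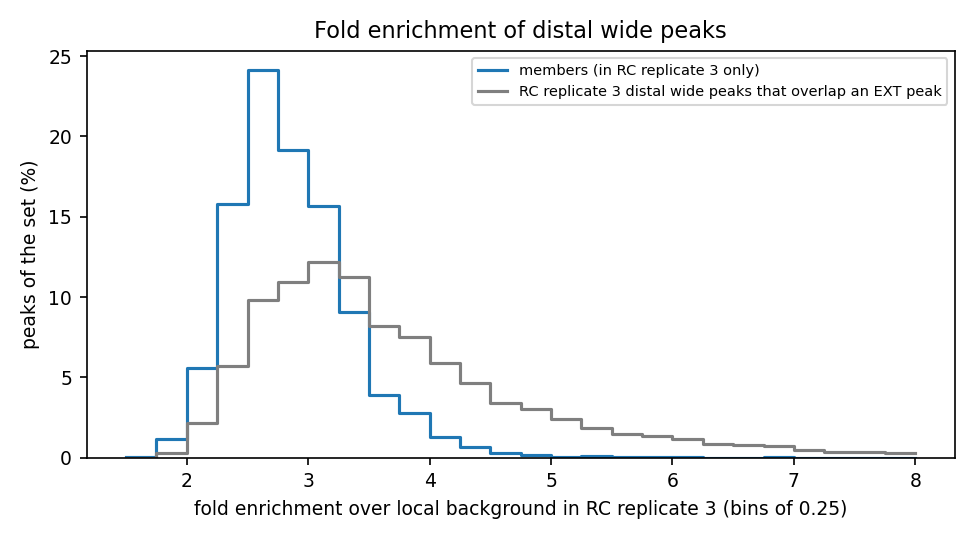
Fold enrichment over the local background in RC replicate 3 (x axis, bins of 0.25) against the percentage of each set, for the members (blue) and the distal wide peaks that overlap an EXT peak (grey). The members crowd around their median of 2.80, and a further 2.63% of the other peaks lie at 8 or more, where there is no member.

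The share of peaks found in 1 list fell with fold in every complete list. In RC replicate 3 it was 43.6% below a fold of 2.5, 37.0% at 2.5 to 3, 23.0% at 3 to 3.5, 10.7% at 3.5 to 4 and 2.31% from 4 on. EXT replicate 1 went from 37.0% to 3.68% and EXT replicate 2 from 67.8% to 24.1% over the same steps. Recurrence in RC replicate 1 followed another course. For members it was 23.6%, 20.3%, 22.1%, 20.5% and 13.3% in the same order, the last from 2 of 15 peaks, so no fold class stood above the rest beyond its interval. EXT replicate 2-only peaks went from 41.5% to 71.1%.

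**Figure D3:**
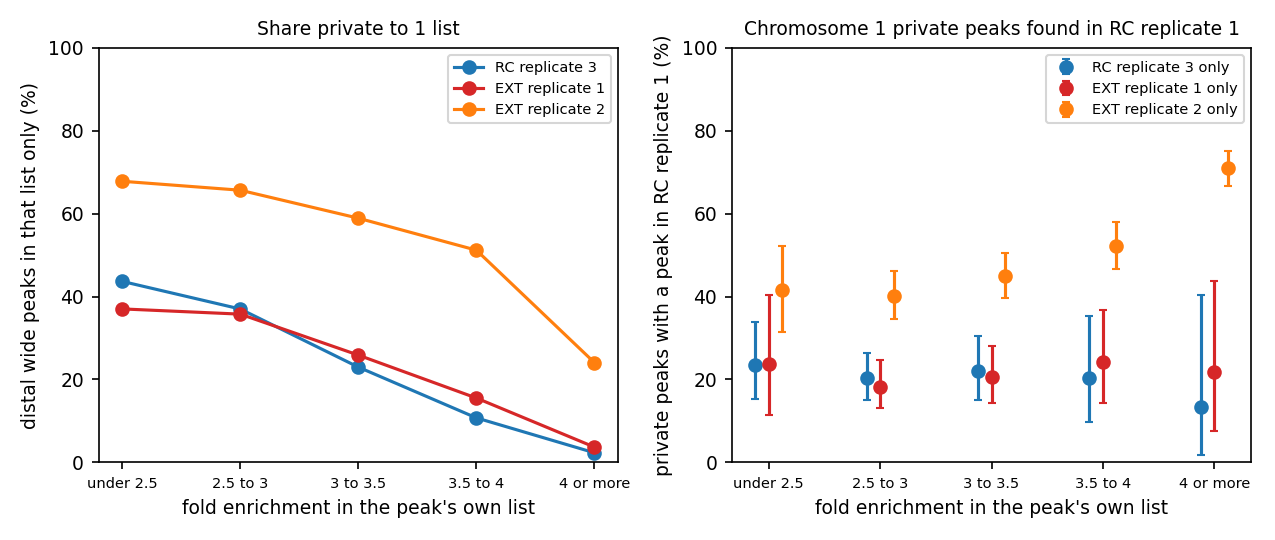
Left, percentage of distal wide peaks in that list only, by fold enrichment in the peak's own list; right, percentage of those on chromosome 1 with a peak in RC replicate 1 (bars are 95% exact binomial intervals). The share in RC replicate 3 only falls from 43.6% to 2.31%, while recurrence of these members stays between 13.3% and 23.6%.

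The strongest members by −log10 q lay mostly outside genes, with 2 of 10 inside one. The highest, chr9:45793678-45794030 in Cep164, a gene for a ciliary base protein, had a fold of 6.98, a pileup of 76 and a −log10 q of 37.0, with an EXT replicate 2 peak 0.234 kb away. The other inside a gene was chr17:47276695-47277040 in Trerf1, a transcriptional regulator, with a fold of 4.87. The peak at chr11:112775652-112775856 lay 6.35 kb from an end of Sox9, the glial and chondrocyte transcription factor, with a fold of 6.48 and no EXT peak within 6.1 kb. The peak at chr3:137813617-137813808, fold 6.93, stood 16.3 kb from the nearest EXT peak, and chr14:19278080-19278269, fold 6.07, stood 137 kb from one. None of these 10 lies where the other RC lists reach.

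The 5 longest members had folds of 2.97 to 3.84, above the median of 2.80 for all members. A peak of 971 bp in Fmn2, an actin-nucleating formin, had a fold of 3.84, and peaks in Ano10, a membrane scramblase family gene (940 bp), and Dgki, a diacylglycerol kinase (886 bp), had 3.12 and 3.55. One of 799 bp, with a fold of 3.55, lay 7.85 kb from Smco2. Another of 774 bp in Cyfip2, a component of the WAVE actin complex, had 2.97. The member farthest from any gene end, chr8:6398678-6398869, was 982 kb from one, and the next 4 all lay inside Macrod2, 642 to 775 kb from the nearest end, that of Flrt3. Those 4 had folds of 2.60 to 3.76.

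At the length threshold, 67 members were 171 bp long, with a median fold of 2.89, and 87 peaks of 170 bp were left out, with 2.83. The shortest members of highest fold lay in Prpf19 (3.76), Eri1 (3.61) and Cinp (3.61), and the excluded peaks of 170 bp with the highest fold had 5.92, 4.30 and 4.04. At the distance threshold, 92 members 1001 to 1100 bp from a gene end had a median fold of 2.63, and 77 peaks at 901 to 1000 bp had 2.69.

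Members lay inside genes more often than the other distal wide peaks of RC replicate 3. There were 7363 of them inside a gene, 78.1% (77.3 to 78.9), beside 71.2%. Protein-coding genes held 6951 (73.7%, beside 65.5%), lncRNA genes alone 412 (4.37%), and 2063 (21.9%, beside 28.8%) were outside. Exons and introns were not told apart. EXT replicate 1-only peaks were inside genes in 74.1% and EXT replicate 2-only peaks in 69.4%. Weak peaks lay inside genes more often whether or not they were members. Below a fold of 2.5 the share was 85.3% for members and 83.8% for the other peaks, at 2.5 to 3 it was 79.2% and 76.8%, and from 4 on it was 58.3% and 66.8%. The members' share thus moved with fold, and it lay above that of the other peaks in each class below 4 and under it from 4 on.

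The share of distal peaks that were members was larger in longer genes. It was 17.6% outside genes, 20.6% in genes under 50 kb, 23.7% at 50 to 200 kb, 23.5% at 200 to 500 kb, 27.7% at 500 to 1000 kb and 28.9% (26.7 to 31.1) from 1000 kb on. The share for EXT replicate 1-only peaks ran from 19.6% to 27.7%, and that for EXT replicate 2-only peaks from 42.3% to 43.5%. Median fold over all peaks in these classes of RC replicate 3 lay between 3.15 and 3.47. Within the fold class 2.5 to 3 the members' share was 34.4% outside genes, 33.8% in genes under 50 kb and 46.3% in the longest. In that fold class the share was 34.6% outside genes and 44.9% in the longest for EXT replicate 1, and 64.6% and 72.2% for EXT replicate 2. The part of fold in these shares was not tested.

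**Figure D4:**
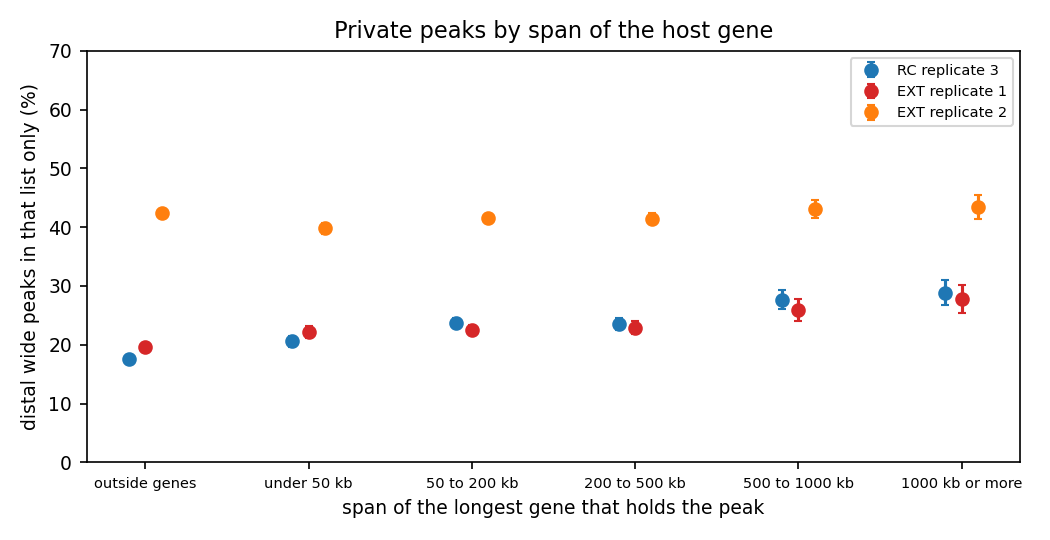
Percentage of distal wide peaks in that list only (y axis) by the span of the longest gene that holds the peak (x axis), with 95% exact binomial intervals. RC replicate 3 and EXT replicate 1 rise side by side, from 17.6% to 28.9% and from 19.6% to 27.7%, and EXT replicate 2 starts at 42.3% and ends at 43.5%.

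By chromosome the members' share ran from 20.1% (chromosome 6) to 25.7% (chromosome 16). On chromosome 16 the shares in EXT replicate 1 only and EXT replicate 2 only were 23.8% and 44.7%.

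At least 1 member lay in 4024 genes, of which 3434 were protein-coding, out of 20665 on chromosomes 1 to 19. Of these, 2114 had exactly 1 member and 271 had 5 or more. The 10 protein-coding genes with the most held 254 of 656 distal wide peaks as members, 38.7%, and since they were picked for that number the share carries no test. In the same genes 36.6% of EXT replicate 1 peaks and 48.3% of EXT replicate 2 peaks were in that list only. Csmd1, a complement regulator at synapses, had 33 members of 118 peaks (28.0%). Ptprd, a presynaptic receptor phosphatase, had 31 of 67 (46.3%), and the EXT replicate 1-only share was 51.6%. Cadm2, a synaptic adhesion molecule, had 28 of 42 (66.7%), beside 10 of 23 (43.5%) in EXT replicate 1 and 66.0% in EXT replicate 2. Robo2, a receptor for Slit guidance cues, had 25 of 43 (58.1%), beside 7 of 23 (30.4%) and 57.4%.

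Cadm2 and Robo2 were the genes of the 10 where the members' share lay farthest above that of EXT replicate 1. Dpp10, a subunit of A-type potassium channels, had 27 of 61 (44.3%; 53.3% in EXT replicate 1). Rbfox1 and Celf2, which regulate splicing and RNA processing, had 26 of 97 (26.8%) and 24 of 76 (31.6%), close to 27.5% and 31.0% in EXT replicate 1. Magi2, a postsynaptic scaffold, Negr1, a neuronal adhesion molecule, and Nrg3, a ligand of ErbB4, had 20 each, of 53, 52 and 47. Dpp10 lies where RC replicate 1 reaches: 4 of its 27 members had a peak there, beside 28 of all its 61 distal wide peaks and 4 of 24 EXT replicate 1-only peaks.

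**Figure D5:**
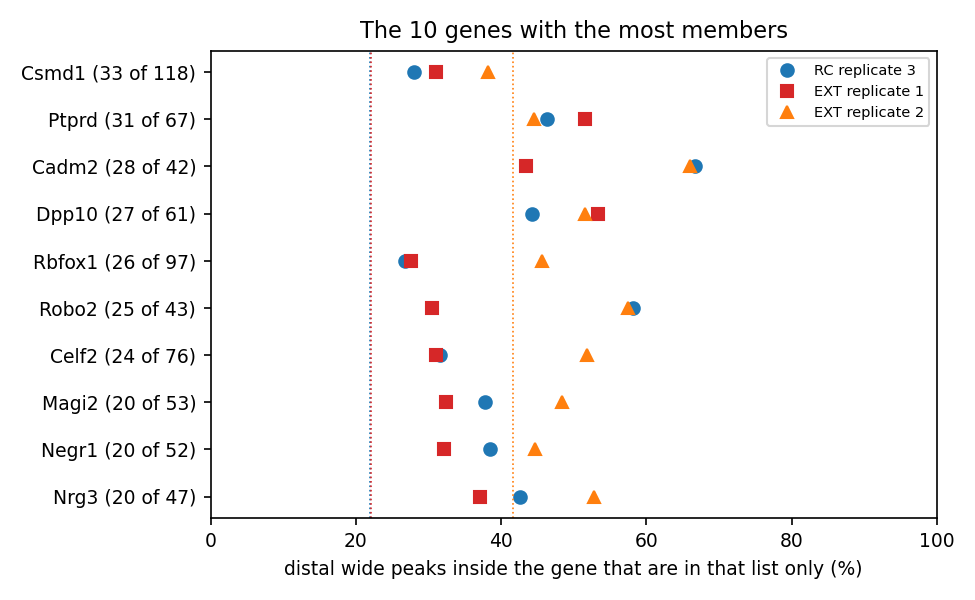
Percentage of distal wide peaks inside a gene that are in that list only, for the 10 protein-coding genes with the most members (members of RC replicate 3 peaks in brackets). Dotted lines give the whole-list shares of 22.0%, 22.1% and 41.6%, and all 10 members' shares lie to the right of the first, from 26.8% in Rbfox1 to 66.7% in Cadm2.

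Gene groups of the synapse and of neuronal activity are given by the share of their distal wide peaks that were members. The share for all distal wide peaks of RC replicate 3 inside genes was 23.6%. That value is not matched for gene length. Median spans were 902.6 kb for synaptic adhesion, 7.57 kb for immediate early and 12.9 kb for all genes. Members made up 27.7% of peaks in genes of 500 to 1000 kb and 28.9% from 1000 kb on. In immediate early genes, the first to respond to activity, 6 of 26 peaks in 4 of 28 genes were members (23.1%). Nr4a3 had 2 of 3 and Homer1 2 of 7. Among receptors, ionotropic glutamate genes had 45 of 198 (22.7%), with 9 each in Grid1 and Grin2b. Metabotropic glutamate genes had 24 of 69 (34.8%, 23.7 to 47.2), of which Grm5 alone gave 13 of its 23 peaks and Grm7 6 of 17. In EXT replicate 1 the share of that group was 37.7%.

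GABA-A receptor genes had 37 of 97 as members, 38.1% (28.5 to 48.6), beside 29.2% in EXT replicate 1 and 33.3% in EXT replicate 2. Gabrb1 held 11 of 23 and Gabrg3 7 of 28. This was the one group of the synaptic lists in which the members' share exceeded that of both EXT-only sets, and its difference was not tested because the lists were chosen with earlier results known. Synaptic adhesion genes had 219 of 756 (29.0%, 25.8 to 32.3), in 24 of 29 genes, and 33.0% in EXT replicate 1. Postsynaptic scaffold genes had 97 of 415 (23.4%), including 18 of 98 in Dlg2, the gene of PSD-93.

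Potassium and calcium channel genes had 119 of 463 (25.7%), with 19 of 64 in Kcnma1, the BK channel, and 13 of 25 in Kcnq5, an M-current channel. Kcnq5 lies where all lists reach: of its 13 members 1 was in RC replicate 1 and 0 in RC replicate 2, beside 11 and 10 of its 25 distal wide peaks. Axon guidance genes had 69 of 240 (28.8%; 23.6% in EXT replicate 1), with 8 of 20 in Robo1. Genes of cAMP and calcium signalling had 108 of 469 (23.0%), with 11 each in the phosphodiesterase genes Pde4d and Pde4b. Genes of histone acetylation, a mark tied to memory, had 17 of 74 (23.0%), with 6 of 15 in Hdac4 and 3 of 6 in Ncor1. Of the 6 Hdac4 members 1 was in RC replicate 1, beside 9 of all its 15 distal wide peaks. There, 0 of 1 EXT replicate 1-only peaks and 8 of 18 EXT replicate 2-only peaks were in RC replicate 1.

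Marker genes of cell types held few members outside excitatory neurons. Excitatory neuron genes had 36 of 127 (28.3%; 28.4% in EXT replicate 1), with 14 of 38 in Foxp1 and 8 of 28 in Sox5. Inhibitory neuron genes had 2 of 12. Oligodendrocyte, microglia, astrocyte and endothelial genes had 3 of 24, 1 of 7, 1 of 20 and 3 of 13, each list in 1 gene, among them Spi1, Slc4a4 and Erg. Counts this small cannot place these lists above or below the 23.6%.

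Of gene classes that the distance rule did not use, 33 members overlapped a pseudogene (0.35%, beside 0.41% of the other distal wide peaks of RC replicate 3) and 10 a transcribed pseudogene (0.11%, beside 0.18%). A tRNA gene was overlapped by 2 members (0.021%, beside 0.15%) and a microRNA gene, the Mir3085 gene shown above, by 1 (0.011%, beside 0.087%). One more member overlapped Terc, the RNA of telomerase. Reads of pseudogenes can be shared with their parent genes, so those calls are uncertain.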

How the data were processed

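ATAC-seq lists of 5 libraries (3 RC, 2 EXT) were used, grouped by sample title. This holds also for EXT replicate 2, whose file carries the number 3. Per the file headers, the authors ran MACS 2.2.4 on single libraries, without a control, with a tag shift of -75 bp, an extension of 150 bp and a q-value cutoff of 0.05. The submitters' processing notes name mm10. The deposited pileup is a coverage signal at the summit, and the deposited fold enrichment is the authors' ratio to the library's own local background. The authors' −log10 q values come from that background. All 3 describe peaks within a list only. Read counts per region were not used, so depth is known only as tags per library.

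Peaks overlapped when they shared at least 1 bp. Gene ends, hosts and promoter windows came from RefSeq tables of GRCm38.p6, with 21887 protein-coding and 12727 lncRNA genes. All 316 genes of 16 lists were matched. An incomplete last line was dropped from the lists of RC replicates 1 and 2. Shares carry exact 95% binomial intervals, differences Newcombe intervals. Interval operations were tested on simulated data. Python 3.11.15, pandas 2.3.3, SciPy 1.17.1 and Matplotlib 3.10.9 were used.

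Members named singly are the 10 of highest −log10 q, the 5 longest, the 5 farthest from gene ends, those in all 3 RC lists, the 10 of highest fold also in RC replicate 1 and the 3 shortest. Genes named are the 10 with most members and the 2 with most in each list, a few of which are not reported here. The members and lists were chosen with earlier results of these data known. The bins of fold, gene span and gap, the list patterns, the check of named genes on chromosome 1, the promoter, microRNA and motif searches, the printed sequences, the pairwise check and the lists of equal length were chosen after values were seen. Alternatives were other lengths, distances, overlaps and −log10 q, leaving out each library and the pairing of replicate numbers.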

Additional observations from a re-analysis of the deposited data

How the results depend on the processing

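Of 110 alternative values, 63 lay within the 95% interval of the share, difference or median reported, within 1.5 times the number of members, or on the same side of 0 for the difference in numbers of peaks, and 47 did not. The number of members was 3741 for peaks over 250 bp, 16132 with no minimum length and 4053 at a −log10 q of at least 5, and 12179 to 19618 with 1 EXT library left out. Their share of distal wide peaks was 13.4%, 20.5% and 15.2% under the same 3 settings, 17.5% when a gap of 500 bp counted as overlap, 24.5% when 50% of the shorter peak had to be shared, 19.7% with lists of equal length, and 28.4% to 45.7% with 1 EXT library left out. The share found in RC replicate 1 was 41.3% with lists of equal length and 24.8% to 54.3% with 1 library left out. The difference from EXT replicate 1-only peaks was 8.58 points with lists of equal length and 11.2 points without EXT replicate 2. With no minimum length it was 4.65 points (1.06 to 8.22), within the reported interval but with its own interval above 0. The difference from EXT replicate 2-only peaks was -40.1 points over 250 bp, -26.3 with no minimum, -33.3 without EXT replicate 1 and -35.7 with lists of equal length. Without RC replicate 3 the 2 differences were 15.05 and -1.67 points, another measure, since peaks of RC replicate 1 were then looked up in RC replicate 2. On the part all lists reach, the shares in RC replicates 1 and 2 were 34.4% and 31.2% with lists of equal length, the second was 24.4% at a −log10 q of at least 5, and with 1 library left out they ran from 20.0% to 46.2% and from 16.7% to 45.7%. The share inside genes was 77.0% over 250 bp, 74.4% with no minimum, 75.01% at a −log10 q of at least 5 and 80.6% over 5 kb from gene ends, and 74.8% to 76.3% with 1 library left out. Median length was 302, 187 and 265 bp under the first 3 of these and 236 bp with 50% overlap, and 241 to 247 bp with 1 library left out. Median fold was 2.85, 2.89 and 3.40 under the first 3, 2.82 over 5 kb from gene ends and 2.83 with the 500 bp gap, and 2.87 to 2.90 with 1 library left out. The cause of these shifts was not tested. The log2 difference in numbers of distal wide peaks was -0.72 to 0.15 with 1 library left out, reversed without EXT replicate 1.

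Whether replicate numbers pair the libraries was not settled. The list titled EXT replicate 2 carries the number 3 in its file name, so its pair is in doubt. A pairing by that number is not given. Deviations of libraries with the same number in their titles correlated at -0.763 (number 1) and 0.730 (number 2) over 34 bins of 1 Mb. These signs are opposite, so they cannot decide it. With the replicate block the mean log2 difference was -0.59 over 2 pairs. The RC lists that test recurrence cover parts of chromosome 1 only, so nothing is known of recurrence on the other chromosomes. With 3 against 2 libraries the exact permutation test cannot go below a p of 0.1.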

Other observations

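Distal peaks of RC replicate 3 of 170 bp or less, which the length rule leaves out, behaved much as the wider ones in the EXT lists. Of 35693 such peaks 6706 overlapped no EXT peak (18.8%). On chromosome 1 within reach of RC replicate 1, 62 of 373 were found there, 16.6% (95% exact interval 13.0 to 20.8), beside 1038 of all 2044 short distal peaks (50.8%). On chromosome X, 36 of 200 distal wide peaks of RC replicate 3 overlapped no EXT peak.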
